A study of Mus musculus with 24 samples.

Results

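The genes of the proteasome, the complex that degrades ubiquitin-tagged proteins, were followed in MIN6 cells through 3 h of endoplasmic reticulum stress. Members were all rows of the gene count table whose symbol starts with Psma, Psmb, Psmc, Psmd, Psme, Psmf or Psmg and a number, pseudogenes left out. The rule found 50 of 24421 genes. They comprise 8 alpha and 7 beta subunits of the 20S core, 4 tissue-restricted beta subunits, 9 base and 8 lid subunits of the 19S cap, 6 activators and inhibitors, 7 assembly factors, and Psmc3ip, which encodes a recombination protein and is no part of the complex. The 20S core is a barrel whose outer alpha rings gate the entry and whose inner beta rings cut the substrate. The 19S cap binds ubiquitin chains through its base and lid, removes them and threads the unfolded protein into the core with a ring of ATPases in the base. Misfolded proteins of the endoplasmic reticulum are exported to the cytosol and end in this complex, a route that beta cells, with their high output of proinsulin, are known to rely on.

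MIN6 is a mouse insulinoma line that secretes insulin, and its polyadenylated RNA was sequenced in 24 libraries, 4 in each of 6 groups. Cells carried a plasmid for EIF2A fused to GFP, called EIF2A here, or for GFP alone, the control. Each construct was given 1 µM thapsigargin for 1 h or 3 h or the vehicle DMSO, called 0 h. Thapsigargin inhibits SERCA, which pumps calcium into the endoplasmic reticulum, and EIF2A is a translation initiation factor. The groups were therefore EIF2A at 0, 1 and 3 h and GFP at 0, 1 and 3 h, all in cells that had been transfected. No vehicle library is labelled 1 h or 3 h, so time in culture and thapsigargin cannot be told apart. The labels do not say whether replicates were separate cultures, so p-values measure the spread between these libraries, which may be technical. Libraries held 10522758 to 22222701 gene counts. The beta cell genes Ins1, Ins2 and Iapp were detected in every library. Of the acinar genes, Prss1 was at 0 in all 24 and Cpa1 in 20, while Cela1 had 0.15 to 1.09 CPM. The alpha cell gene Gcg, at 138 to 921 CPM, and the duct gene Spp1, at 13.3 to 702 CPM, were also detected in every library.

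Values are CPM, counts scaled to a common library size after adjustment for library composition. Fold changes are log2 values ± standard error (SE), tested with edgeR's quasi-likelihood test over 13761 genes with Benjamini-Hochberg adjustment over all of them. A gene "rose" or "fell" where its adjusted p was under 0.05. Of the members, 48 passed the filter on low counts. Psma8, a testis alpha subunit, had no count in any library, and Psmb11, the thymus beta subunit, was too low to be tested. Eif2a itself went against the labels in replicate 1. It stood at 80.3, 141, 142 and 134 CPM in replicates 1 to 4 of the EIF2A libraries at 0 h, against 269, 79.0, 77.8 and 78.7 CPM in GFP. Replicate 1 thus had the higher value in the library labelled GFP, and it did so at 1 h and 3 h too. Groups are kept as labelled, "EIF2A" stands for libraries labelled so, and each comparison of constructs is given with and without replicate 1. Times within a construct share the replicate number, so counts with the number as a block stand beside those of the plain fit.

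Core and cap subunits were expressed at like levels, and the tissue-restricted beta subunits far lower. Per kilobase of the main transcript, mean levels over the 24 libraries ran from 27.4 CPM for Psma3 to 299 CPM for Psmb4 among the 14 core subunits tested. They ran from 55.6 CPM for Psmc6 to 194 CPM for Psmc5 in the base and from 27.3 CPM for Psmd11 to 121 CPM for Psmd6 in the lid. Psmb10, an interferon-induced beta subunit, had 8.53 CPM per kilobase, Psmb9 2.43 and Psmb8 2.34. Assembly factors lay between 17.3 CPM per kilobase for Psmd5 and 50.5 for Psmg1. These lengths differ between genes and isoforms, so the order is approximate. Members took on average 0.709% of the gene counts at 3 h and 0.649% at 0 h in EIF2A libraries, and 0.633% at 3 h and 0.628% at 0 h in GFP libraries.

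The promoters of 3 members, 1 of the lid and 2 of the beta ring, are shown as examples of different calls at 3 h, with motif matches in capitals. They are Psmd12 of the lid, which rose, Psmb3 of the beta ring, which fell, and Psmb6, a catalytic beta subunit that was not called. Sequences are from RefSeq on GRCm38.p6, read on the gene's strand, and cover the part of the 250 bases before the RefSeq start that holds no annotated exon. Psmd12 is at chr11:107479278-107479483, Psmb3 at chr11:97703184-97703398 and Psmb6 at chr11:70525107-70525356, all on the plus strand.
Psmd12: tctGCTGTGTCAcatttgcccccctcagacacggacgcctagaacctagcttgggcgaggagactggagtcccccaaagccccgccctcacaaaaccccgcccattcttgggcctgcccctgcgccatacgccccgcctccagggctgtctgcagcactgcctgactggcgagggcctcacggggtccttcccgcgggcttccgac
Psmb3: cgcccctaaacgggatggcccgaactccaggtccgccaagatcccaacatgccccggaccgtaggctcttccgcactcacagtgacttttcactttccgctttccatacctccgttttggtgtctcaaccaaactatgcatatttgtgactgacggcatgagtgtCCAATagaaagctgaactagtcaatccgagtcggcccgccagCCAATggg
Psmb6: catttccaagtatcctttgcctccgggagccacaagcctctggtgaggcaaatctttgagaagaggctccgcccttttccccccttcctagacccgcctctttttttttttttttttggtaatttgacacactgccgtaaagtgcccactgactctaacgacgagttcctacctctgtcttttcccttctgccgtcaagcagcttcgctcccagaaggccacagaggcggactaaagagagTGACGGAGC
The capitals in Psmd12 and Psmb6 match TGACNNNGC, the core of the antioxidant response element that NRF1, the product of Nfe2l1, and its relative NRF2 bind, on the minus strand in Psmd12 and the plus strand in Psmb6. Those in Psmb3 are 2 matches to CCAAT, the box bound by NF-Y. Of 45 windows of 250 bases found for 42 members, 5 held TGACNNNGC on either strand, which is 11.1%, against 10.2% of 32851 windows of all genes. They were those of Psmb5, Psmb6, Psmc6, Psmd12 and Psmd9. CCAAT was in 15 windows of members, or 33.3%, against 33.8% of all windows. A match is a description of letters and not a binding site.

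After 3 h of thapsigargin, 6 of the 14 core subunits fell in EIF2A cells and 9 in GFP cells, while 1 and 0 rose. Of the 17 base and lid subunits tested, 7 rose and 1 fell in EIF2A cells, and 3 rose and 1 fell in GFP cells. Over all members, 8 rose and 12 fell in EIF2A cells, beside 19.6% of all genes called higher and 16.6% called lower. In GFP cells 4 rose and 15 fell, beside 18.4% and 14.6%. With the replicate block, 15 rose and 23 fell in EIF2A cells, beside 32.9% and 33.3% of all genes, and 12 rose and 27 fell in GFP cells, beside 33.6% and 33.5%. The median log2 fold change of the core was -0.20 in EIF2A and -0.30 in GFP cells, and that of base and lid together 0.16 in EIF2A and 0.06 in GFP cells. Over all members it was -0.15 in EIF2A and -0.17 in GFP cells, and over all genes -0.01 in EIF2A and -0.00 in GFP cells.

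Scaling to library totals only moved the median of all genes to 0.15 in EIF2A and 0.12 in GFP cells, and with it the split. Under it 16 members rose and 6 fell in EIF2A cells, beside 27.7% and 9.7% of all genes. In GFP cells 10 rose and 10 fell, beside 24.4% and 9.77%, with member medians of 0.01 in EIF2A and -0.05 in GFP cells. The core then had 1 subunit that rose and 3 that fell in EIF2A cells and 1 and 7 in GFP cells, and base and lid had 10 and 1 in EIF2A cells and 6 and 1 in GFP cells. The median of the core stayed below 0, at -0.04 in EIF2A and -0.19 in GFP cells, and that of the lid turned to 0.16 in EIF2A and 0.08 in GFP cells, against -0.00 in EIF2A and -0.04 in GFP cells in the main scaling. No member called in the main scaling changed sign. Without replicate 2 or replicate 3 in all groups, the EIF2A comparison called 8 members in either case and the GFP comparison 8 and 7. Without replicate 1 each called 37, beside 8598 of 13731 genes in EIF2A and 8648 in GFP.

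**Figure D1:**
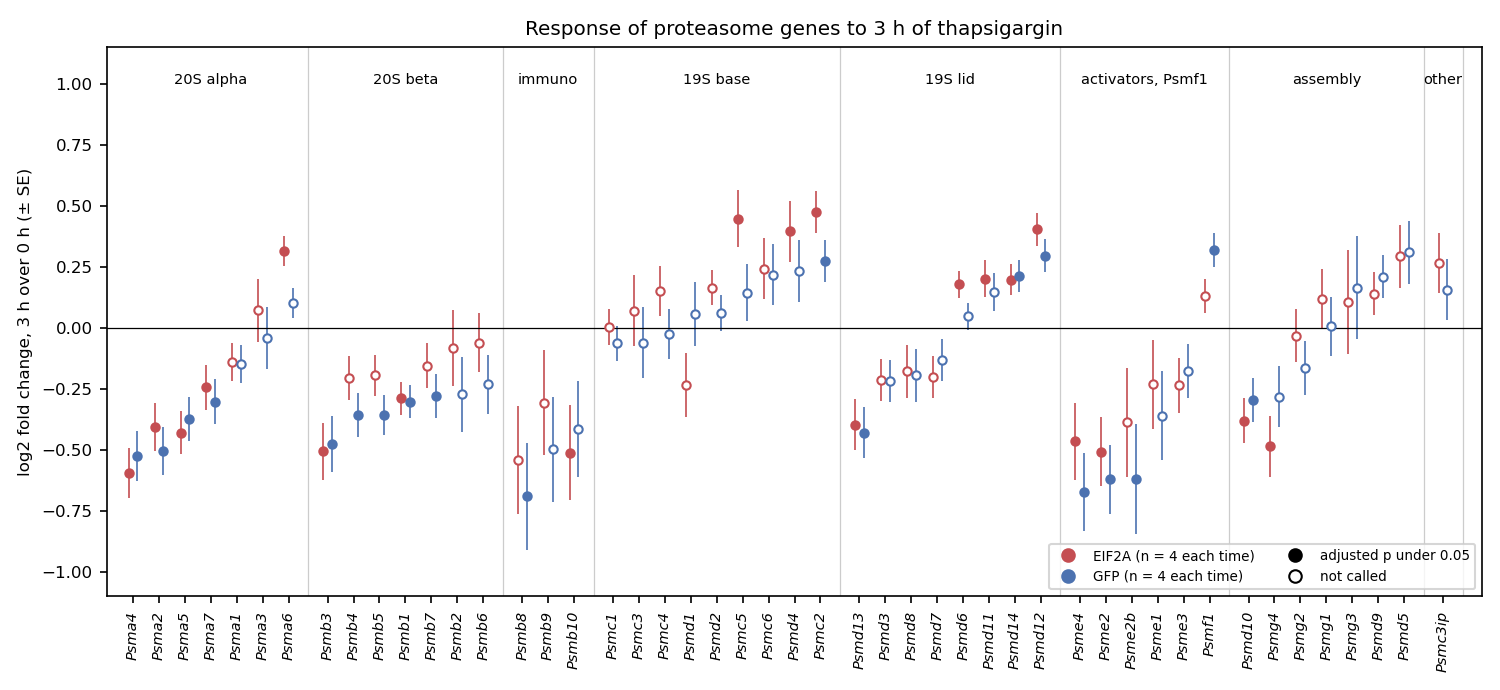
Log2 fold change ± SE of each tested member at 3 h over 0 h (y axis), by module and ordered within it by the GFP value, EIF2A left of GFP (4 libraries per construct and time); filled points passed an adjusted p of 0.05 by edgeR's quasi-likelihood test. Most alpha and beta subunits lie below 0 in both constructs, down to -0.59 for Psma4 in EIF2A, and Psmc2 and Psmd12 lie above 0 in both.

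In the alpha ring, 4 of 7 tested subunits fell in each construct, and Psma2, Psma4, Psma5 and Psma7 were the ones in both. Psma2 stood at 161, 119, 112 and 114 CPM in replicates 1 to 4 of EIF2A at 3 h, against 185, 165, 159 and 161 CPM at 0 h. In GFP it stood at 141, 116, 127 and 122 CPM at 3 h, against 179, 179, 189 and 173 CPM at 0 h. The 3 h libraries were below every 0 h library in GFP, whereas in EIF2A replicate 1 at 3 h lay among the 0 h libraries. Psma2 fell, at -0.41 ± 0.10 in EIF2A and -0.51 ± 0.10 in GFP (adjusted p = 0.00246 and 0.000378).

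Psma4 stood at 106, 123, 117 and 108 CPM in EIF2A at 3 h, against 133, 192, 189 and 175 CPM at 0 h. GFP libraries had 99.0, 86.7, 89.5 and 87.6 CPM at 3 h, against 144, 129, 121 and 128 CPM at 0 h. Neither construct had overlap between the times. Psma4 had the lowest fold change of the ring in both, at -0.59 ± 0.10 in EIF2A and -0.53 ± 0.10 in GFP (adjusted p = 0.000111 and 0.000441). Psma5 and Psma7 fell in both, with log2 fold changes of -0.43 and -0.24 in EIF2A and -0.37 and -0.30 in GFP. Psma7 lost its call in EIF2A in 7 of the 24 fits without 1 library, with adjusted p up to 0.121 without EIF2A replicate 3 at 0 h.

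Psma6 differed from the other alpha subunits. It stood at 172, 188, 182 and 167 CPM in EIF2A at 3 h, against 157, 143, 132 and 139 CPM at 0 h. The GFP values were 152, 159, 158 and 155 CPM at 3 h and 144, 151, 147 and 139.9 CPM at 0 h. All 3 h libraries of a construct were above all of its 0 h libraries, by a small margin in GFP. Psma6 rose by 0.31 ± 0.06 in EIF2A (adjusted p = 0.000486), and in GFP its value was 0.10 ± 0.06 with adjusted p = 0.235. Psma1 and Psma3 were not called in either construct.

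In the beta ring, 2 of 7 subunits fell in EIF2A and 5 of 7 in GFP, and none rose. With the replicate block 5 fell in EIF2A and 7 in GFP. Psmb3, a non-catalytic subunit, stood at 71.5, 87.8, 85.8 and 94.1 CPM in EIF2A at 3 h, against 96.1, 124, 124 and 139 CPM at 0 h. In GFP it stood at 63.7, 61.5, 63.8 and 69.5 CPM at 3 h, against 85.3, 91.6, 92.8 and 89.8 CPM at 0 h. All 3 h libraries of a construct were below all of its 0 h libraries. Psmb3 fell, at -0.51 ± 0.12 in EIF2A and -0.48 ± 0.12 in GFP (adjusted p = 0.00152 and 0.00284). Psmb1, also of the beta ring, stood at 228, 226, 228 and 238 CPM at 3 h against 269.6, 275, 286 and 294 CPM at 0 h in EIF2A. It fell, at -0.29 ± 0.07 in EIF2A and -0.30 ± 0.07 in GFP.

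Of the catalytic subunits, Psmb5, which carries the chymotrypsin-like activity, and Psmb7, which carries the trypsin-like one, fell in GFP, at -0.36 ± 0.08 and -0.28 ± 0.09. In EIF2A their values were -0.20 ± 0.08 and -0.16 ± 0.09, with adjusted p = 0.0708 and 0.196. The Psmb7 call in GFP was lost without any one of GFP replicate 1 at 0 h or replicates 2, 3 or 4 at 3 h (adjusted p = 0.0510 to 0.0665). Psmb6, the caspase-like subunit, was not called, at -0.06 ± 0.12 in EIF2A and -0.23 ± 0.12 in GFP. Psmb4, the core subunit with the highest mean CPM, fell in GFP, at -0.36 ± 0.09 and had -0.21 ± 0.09 in EIF2A with adjusted p = 0.0794.

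Of the 9 base subunits, 3 rose and 0 fell in EIF2A, and 1 rose and 0 fell in GFP. With the block, 6 rose and 1 fell in EIF2A and 4 rose in GFP. Psmc2, an ATPase of the base ring, stood at 272, 339, 341 and 319 CPM in EIF2A at 3 h, against 237, 230.0, 234 and 215 CPM at 0 h. GFP libraries had 249.6, 278, 280.4 and 272 CPM at 3 h, against 205, 235, 225 and 227 CPM at 0 h. All 3 h libraries of a construct were above all of its 0 h libraries. Psmc2 rose by 0.47 ± 0.09 in EIF2A and 0.27 ± 0.09 in GFP (adjusted p = 0.000199 and 0.0180). The GFP call was lost without GFP replicate 1 at 0 h or replicate 3 at 3 h, with adjusted p = 0.0605 and 0.0528.

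Psmc5, another ATPase, stood at 227, 328, 318 and 335 CPM in EIF2A at 3 h, against 204, 223, 229 and 230.0 CPM at 0 h. The GFP values were 211, 226, 230.4 and 235 CPM at 3 h and 197, 205, 204 and 212 CPM at 0 h. Replicate 1 of EIF2A at 3 h lay within the 0 h range, and the other 3 libraries well above it. Psmc5 rose by 0.45 ± 0.12 in EIF2A (adjusted p = 0.00446), while GFP gave 0.14 ± 0.12 (adjusted p = 0.385). Psmd4, a ubiquitin receptor of the cap, rose by 0.39 ± 0.13 in EIF2A and had 0.23 ± 0.13 in GFP with adjusted p = 0.170. Its EIF2A call was lost without EIF2A replicate 1 at 0 h or replicate 4 at 3 h, with adjusted p = 0.0598 and 0.0767. The scaffold subunit Psmd1 was not called, at -0.23 ± 0.13 in EIF2A and 0.06 ± 0.13 in GFP.

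Of the 8 lid subunits, 4 rose and 1 fell in EIF2A, and 2 rose and 1 fell in GFP. Psmd12 stood at 145, 146, 145 and 129.5 CPM in EIF2A at 3 h, against 119.9, 100.4, 104 and 104 CPM at 0 h. In GFP it stood at 136, 142, 145 and 139 CPM at 3 h, against 105, 119.7, 116 and 117 CPM at 0 h. All 3 h libraries of a construct were above all of its 0 h libraries. Psmd12 rose by 0.40 ± 0.07 in EIF2A and 0.30 ± 0.07 in GFP (adjusted p = 6.57e-05 and 0.00150). Psmd14, the deubiquitinase of the lid, rose by 0.20 ± 0.06 in EIF2A and 0.21 ± 0.06 in GFP. Its EIF2A call was lost without EIF2A replicate 4 at 0 h or replicates 2 or 3 at 3 h, with adjusted p = 0.0527 to 0.0892. Psmd6 and Psmd11 rose in EIF2A, by 0.18 and 0.20. Psmd11 lost its call in 17 of the 24 fits without 1 library, with adjusted p up to 0.186, and Psmd6 without EIF2A replicate 4 at 0 h (adjusted p = 0.0567).

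Psmd13, also of the lid, stood at 136, 149, 154 and 166 CPM in EIF2A at 3 h, against 161, 203, 216 and 218 CPM at 0 h. GFP libraries had 138, 111, 117 and 121 CPM at 3 h, against 175, 161, 163 and 158 CPM at 0 h. The highest 3 h library of EIF2A, replicate 4, was above the lowest at 0 h, replicate 1, and GFP had no overlap. Psmd13 fell, at -0.40 ± 0.10 in EIF2A and -0.43 ± 0.10 in GFP (adjusted p = 0.00471 and 0.00286). Psmd3, Psmd7 and Psmd8 were below 0 without being called, at -0.22, -0.20 and -0.18 in EIF2A. Of the tested members, 8 share exonic bases with a gene on the other strand, Psmd13, Psma4, Psmb7 and Psmd1 among them, and whether counting used strand is not given in the sources used here. Psmd1, Psmg3 and Psme2b share some with a gene on the same strand.

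**Figure D2:**
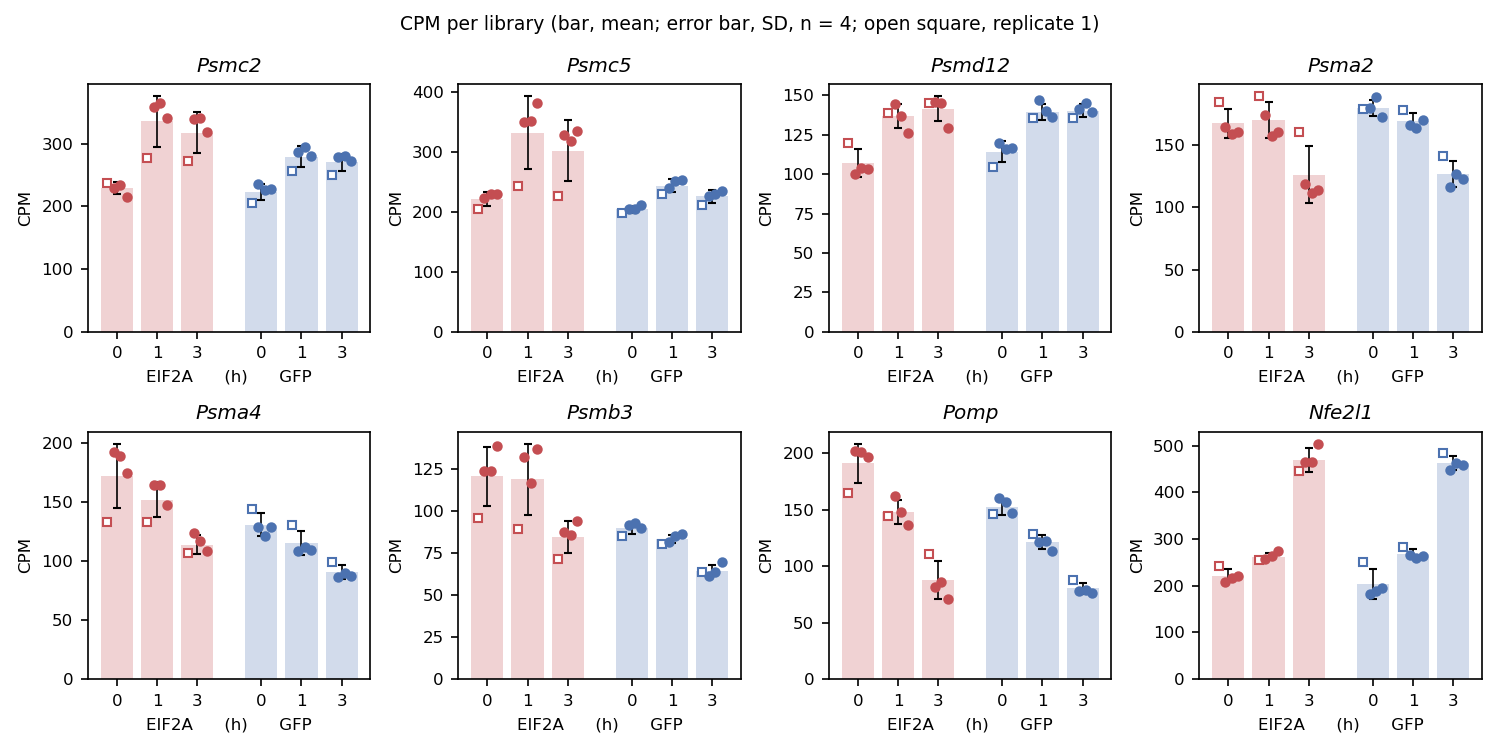
CPM (y axis) in every library by hours of thapsigargin (x axis), EIF2A left of GFP in each panel; bars are means, error bars SD (n = 4), and open squares replicate 1. Psmc2 and Psmd12 are higher at 3 h than at 0 h, Psma2, Psma4, Psmb3 and Pomp lower, and Nfe2l1 is at least 446 CPM in every 3 h library and at most 250.5 CPM at 0 h.

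The tissue-restricted beta subunits were low, at a mean of 3.81 CPM for Psmb8, 3.28 CPM for Psmb9 and 11.2 CPM for Psmb10. In each construct 1 of the 3 tested fell at 3 h and none rose, and in GFP with the block all 3 fell. Psmb8 stood at 4.28, 2.49, 3.10 and 1.80 CPM in EIF2A at 3 h, against 4.99, 3.59, 4.39 and 4.02 CPM at 0 h. The GFP values were 2.02, 2.59, 2.58 and 3.17 CPM at 3 h and 4.01, 3.65, 4.72 and 4.35 CPM at 0 h. The libraries of the times overlapped in EIF2A. Psmb8 fell, at -0.69 ± 0.22 in GFP (adjusted p = 0.0185) and had -0.54 ± 0.22 in EIF2A (adjusted p = 0.0615). The GFP call was lost without GFP replicate 3 at 0 h or replicate 1 at 3 h, with adjusted p = 0.0547 and 0.0553. Psmb10 fell in EIF2A, at -0.51 ± 0.20 (adjusted p = 0.0459), a call lost in 20 of the 24 fits without 1 library, with adjusted p up to 0.138.

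Macrophages are known to express these subunits, and the summed level of macrophage markers was also lower at 3 h, with ranges that overlapped. The summed level of 8 macrophage markers was 9.67 to 55.8 CPM in EIF2A at 3 h, against 28.8 to 98.4 CPM at 0 h. It was 19.8 to 49.97 CPM in GFP at 3 h, against 38.9 to 69.4 CPM at 0 h. C1qa had 8.42 to 90.8 CPM over all libraries, while Adgre1 was at 0 in 17 libraries, Ptprc in 10, C1qc in 15, C1qb in 11 and Csf1r in 4. Lower sums at 3 h were not particular to this list. The 7 beta cell markers summed to 52328 to 61037 CPM in EIF2A at 3 h, against 83061 to 108590 CPM at 0 h, and to 36591 to 61762 CPM in GFP at 3 h, against 72001 to 105143 CPM at 0 h. The 2 alpha cell markers summed to 138 to 680.1 CPM in EIF2A at 3 h, against 226 to 904 CPM at 0 h, and to 174 to 426 CPM in GFP at 3 h, against 272 to 734 CPM at 0 h. The part of these sums in the result was not tested. All libraries are of the MIN6 line, and whether they held cells of other types was not tested. Of the macrophage markers, Ptprc was at most 0.61 CPM and Adgre1 at most 0.33 CPM in any library. In bulk RNA, fewer cells of a type and less RNA per cell cannot be told apart.

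Of the 6 activators and inhibitor, 2 fell in EIF2A, and 3 fell and 1 rose in GFP. Those that fell were activators, which open the core without ATP or ubiquitin, and the 1 that rose was Psmf1. Psme4, which encodes the nuclear activator PA200, stood at 122, 93.3, 89.7 and 83.3 CPM in EIF2A at 3 h, against 171, 125, 115 and 126 CPM at 0 h. In GFP it stood at 110.3, 112, 108 and 109 CPM at 3 h, against 179, 175, 173 and 173 CPM at 0 h. Replicate 1 was the highest library of both EIF2A groups, and the times overlapped in EIF2A and not in GFP. Psme4 fell, at -0.47 ± 0.16 in EIF2A and -0.67 ± 0.16 in GFP (adjusted p = 0.0260 and 0.00232). The EIF2A call was lost without EIF2A replicate 1 at 0 h or replicates 2, 3 or 4 at 3 h, and without the first of these the value was -0.33 with adjusted p = 0.113.

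Psme2, a subunit of the interferon-induced activator PA28, fell, at -0.51 ± 0.14 in EIF2A and -0.62 ± 0.14 in GFP. Psme2b, its near-identical copy, fell, at -0.62 ± 0.23 in GFP at 2.36 CPM, and because reads can be split between the copies both values are uncertain. Psme2b lost its call without GFP replicates 2 or 4 at 0 h or 2, 3 or 4 at 3 h, with adjusted p = 0.0588 to 0.117. Psmf1, which encodes PI31, a binding partner first described as an inhibitor of the core, was higher instead. It stood at 79.3, 81.0, 81.2 and 84.3 CPM in GFP at 3 h, against 70.2, 63.2, 62.5 and 65.3 CPM at 0 h, with no overlap. Psmf1 rose by 0.32 ± 0.07 in GFP (adjusted p = 0.00122) and had 0.13 ± 0.07 in EIF2A (adjusted p = 0.157).

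Of the 7 assembly factors, 2 fell in EIF2A, Psmd10 and Psmg4, and 1 in GFP, Psmd10, and none rose. Psmd10, or gankyrin, a chaperone of the base, stood at 27.0, 20.8, 20.7 and 18.5 CPM in EIF2A at 3 h, against 27.0, 30.2, 28.4 and 27.6 CPM at 0 h. GFP libraries had 23.9, 23.6, 25.1 and 21.7 CPM at 3 h, against 27.5, 28.1, 29.0 and 31.2 CPM at 0 h. Replicate 1 of EIF2A hardly differed between the times, and GFP had no overlap. Psmd10 fell, at -0.38 ± 0.09 in EIF2A and -0.30 ± 0.09 in GFP (adjusted p = 0.00250 and 0.0153), and the GFP call was lost without GFP replicate 4 at 0 h or at 3 h (adjusted p = 0.0557 and 0.0569). Psmg4, a chaperone of the alpha ring, fell, at -0.49 ± 0.13 in EIF2A and had -0.28 ± 0.13 in GFP (adjusted p = 0.0895). Psmd5 had the highest value, 0.29 ± 0.13 in EIF2A and 0.31 ± 0.13 in GFP, and was not called. Psmc3ip was not called either, at 0.26 ± 0.12 in EIF2A and 0.16 ± 0.12 in GFP.

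The constructs called overlapping sets, and they share no library in these comparisons. Of the 12 members that fell in EIF2A and the 15 that fell in GFP, 10 were the same, or 83.3% and 66.7% of each list. Of the 8 that rose in EIF2A and the 4 in GFP, 3 were the same, namely Psmc2, Psmd12 and Psmd14, or 37.5% and 75% of each list. None was called in opposite directions. The same overlap was not counted over all genes, here or in the comparisons with 1 h, so it is not shown to be particular to members. Across the 48 members the fold changes at 3 h correlated between constructs at r = 0.914, against 0.872 across all 13761 genes, and 43 had the same sign. These points are genes of the same libraries and not independent replicates.

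A ratio within each library does not depend on scaling, and it set base against core. The geometric mean of the 9 base subunits over that of the 14 core subunits, as a log2 ratio, averaged 0.42 ± 0.02, 0.65 ± 0.06 and 0.82 ± 0.06 at 0, 1 and 3 h in EIF2A (SD, n = 4). In GFP it averaged 0.45 ± 0.09, 0.67 ± 0.11 and 0.84 ± 0.10. The difference between 3 h and 0 h was 0.33 to 0.45 over the 4 replicate numbers of EIF2A and 0.36 to 0.40 over those of GFP. Higher ratios at 3 h were thus seen for all 8 pairs of libraries. The lid over the core showed a smaller difference, 0.20 to 0.23 in EIF2A and 0.25 to 0.27 in GFP.

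Replicate 1 was the lowest library for the base ratio in every group. The geometric mean of the core was 144 ± 3.55 CPM at 3 h against 167 ± 4.61 CPM at 0 h in EIF2A, and 124 ± 6.09 CPM against 151 ± 3.06 CPM in GFP. That of the base was 254 ± 16.1 CPM at 3 h against 223 ± 8.88 CPM at 0 h in EIF2A, and 221 ± 5.79 CPM against 207 ± 8.58 CPM in GFP. Core mRNAs were shorter than those of the cap, with a median main transcript of 899 bases in the beta ring and 1201 in the alpha ring, against 1636 in the base and 1742.5 in the lid. Across the 48 members the log2 transcript length correlated with the GFP fold change at r = 0.275. By exonic length, the medians were 1951 bases in the beta ring and 2952 in the alpha ring, against 2808 in the base and 2938.5 in the lid. The alpha ring was thus not shorter by that measure, and removing its trend does not address the difference in main transcripts. With replicate 1 left out and the trend with exonic length removed, the core median at 3 h was -0.21 in EIF2A and -0.32 in GFP, with 1 subunit that rose in each and 9 and 12 that fell in EIF2A and GFP. That of base and lid was 0.14 in EIF2A, where 8 rose and 5 fell. In GFP it turned to -0.03, with 4 that rose and 4 that fell. All genes had a median of -0.04 in both constructs under this setting.

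**Figure D3:**
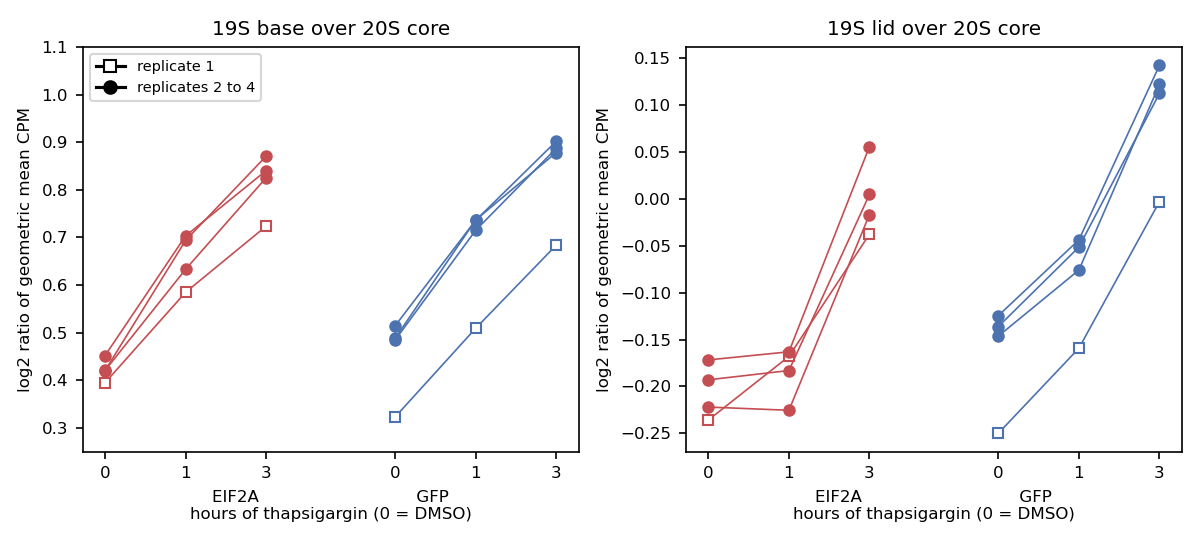
Log2 ratio of the geometric mean CPM of the 19S base (left) and lid (right) over that of the 20S core (y axis) by hours of thapsigargin (x axis), 1 line per replicate number, EIF2A left of GFP; open squares are replicate 1. The base ratio lies at 0.32 to 0.51 at 0 h and at 0.68 to 0.90 at 3 h, with no overlap between the times.

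At 1 h members rose and none fell in the plain fit, and the base had 6 of 9 called in EIF2A and 2 in GFP. In EIF2A cells 10 members rose and 0 fell at 1 h, beside 6.55% and 3.94% of all genes. With the block 22 rose and 3 fell, beside 21.9% and 23.3%. In GFP cells 4 rose and 0 fell, beside 5.78% and 2.39% of all genes, and with the block 16 rose and 3 fell, beside 22.9% and 21.6%. The 4 of GFP, Psma6, Psmc2, Psmd2 and Psmd12, were all among the 10 of EIF2A. DESeq2 called 12 higher and 0 lower in EIF2A, and 6 and 0 in GFP, with no share over all genes given here. At an unadjusted p under 0.05 edgeR had 9 of 48 members in GFP, beside 2760 of 13761 genes.

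Of the 10 that rose in EIF2A, 6 were of the base, namely Psmc5, Psmc2, Psmd4, Psmd2, Psmc4 and Psmc1. Psmc5 had the highest value, 0.58 ± 0.12 (adjusted p = 0.00266), with 243, 350.1, 351 and 382 CPM at 1 h, against 204, 223, 229 and 230.0 CPM at 0 h. Replicate 1 was the lowest of the 1 h libraries, and all lay above the 0 h range. Psmc2 rose by 0.55 ± 0.09 in EIF2A and 0.32 ± 0.09 in GFP (adjusted p = 0.000340 and 0.0232). In GFP it stood at 257, 286, 294 and 280.3 CPM at 1 h, against 205, 235, 225 and 227 CPM at 0 h, with no overlap. Psmd2, a scaffold of the base, rose by 0.39 ± 0.07 in EIF2A and 0.29 ± 0.07 in GFP. With the block, 8 of 9 base subunits rose in EIF2A and all 9 in GFP, against 5 of 7 beta subunits in EIF2A and 0 of 7 in GFP.

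The lid gave 3 of the EIF2A members that rose, Psmd6, Psmd12 and Psmd14, and the alpha ring gave Psma6. Psmd12 rose by 0.35 ± 0.07 in EIF2A and 0.29 ± 0.07 in GFP, and in GFP it held its call in all 24 fits without 1 library. Psma6, Psmc2 and Psmd2 lost theirs in GFP without single libraries. The GFP count was 2 without GFP replicates 1, 3 or 4 at 0 h and 1 without GFP replicates 2, 3 or 4 at 1 h. It was 7 without EIF2A replicate 1 at 1 h, 14 without replicate 1 in all groups and 0 without replicate 2, 3 or 4. The EIF2A count was 18 without EIF2A replicate 1 at 1 h, 24 without replicate 1, 3 without replicate 2 or 3 and 5 without replicate 4. Without replicate 1 in all groups, 5762 of 13731 genes were called in EIF2A and 5413 in GFP. In EIF2A, Psmc4, Psmd4 and Psmd14 lost their call without single EIF2A libraries, with adjusted p = 0.0550 to 0.0949.

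Between 1 h and 3 h the movement was downward. In EIF2A cells 0 members rose and 19 fell, beside 8.28% and 6.62% of all genes, and with the block 2 rose and 33 fell, beside 26.7% and 25.9%. In GFP cells 0 rose and 13 fell, beside 5.49% and 4.28% of all genes, and with the block 4 rose and 32 fell, beside 25.2% and 24.5%. Core subunits made up 10 of the 19 in EIF2A and 8 of the 13 in GFP, and with the block all 14 core subunits fell in each. Of both lists, 12 members were shared, or 63.2% of that of EIF2A and 92.3% of that of GFP, with no such count over all genes. Psmb4 fell, at -0.46 ± 0.09 in EIF2A and -0.34 ± 0.09 in GFP (adjusted p = 0.00154 and 0.0211). Among the base, Psmc1 and Psmd2 fell in both, Psmd2 at -0.23 ± 0.07 in EIF2A and -0.23 ± 0.07 in GFP.

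DESeq2 called 0 members higher and 23 lower in EIF2A, and 0 and 17 in GFP. Scaled to library totals only, which put the median of all genes at 0.17 in EIF2A and 0.11 in GFP, 4 rose and 6 fell in EIF2A, beside 18.9% and 2.54% of all genes. In GFP 2 rose and 5 fell, beside 10.3% and 2.09%. The GFP count was 6, 8 and 3 without GFP replicate 1, 3 or 4 at 1 h, 2, 4 and 7 without GFP replicate 2, 3 or 4 at 3 h, and 0 without replicate 2, 3 or 4 in all groups. The EIF2A count was 12 without EIF2A replicate 4 at 1 h or replicate 2 or 3 at 3 h, and 1, 0 and 3 without replicate 2, 3 or 4 in all groups. Without replicate 1 in all groups it was 37, and 32 in GFP, beside 6740 and 5798 of 13731 genes. The comparison of 3 h with 1 h shares its 3 h libraries with that of 3 h and 0 h.

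Partners and regulators of the proteasome that the symbol rule did not take were counted in the same way. Of 19 partners tested, 5 rose and 5 fell in EIF2A at 3 h, beside 19.6% and 16.6% of all genes. In GFP 3 rose and 4 fell, beside 18.4% and 14.6%. Pomp, the chaperone that matures the core, had the lowest fold change of these partners. It stood at 111, 81.3, 85.8 and 71.4 CPM in EIF2A at 3 h, against 165, 202, 201 and 196 CPM at 0 h. The GFP values were 87.8, 78.3, 78.7 and 76.7 CPM at 3 h and 146, 160.2, 156 and 147 CPM at 0 h. There was no overlap in either construct, and Pomp fell, at -1.13 ± 0.10 in EIF2A and -0.92 ± 0.10 in GFP (adjusted p = 4.92e-08 and 6.95e-07). Shfm1, listed also as Sem1, the smallest lid subunit, fell, at -0.68 ± 0.06 in EIF2A and -0.66 ± 0.06 in GFP.

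The ubiquilin shuttles Ubqln2 and Ubqln4, which carry tagged proteins to the cap, fell in GFP, at -0.51 ± 0.11 and -0.23 ± 0.09. Uchl5, a deubiquitinase of the cap, rose by 0.43 ± 0.08 in EIF2A and 0.44 ± 0.08 in GFP. Akirin2, which takes proteasomes into the nucleus, rose by 0.29 ± 0.08 in EIF2A and 0.41 ± 0.08 in GFP. Fbxo7, a ubiquitin ligase subunit that binds PI31, rose by 0.58 ± 0.12 in EIF2A and 0.40 ± 0.12 in GFP.

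Nfe2l1 encodes NRF1, the factor of the endoplasmic reticulum membrane that switches on proteasome genes when the complex is short. It stood at 446, 465, 465 and 505 CPM in EIF2A at 3 h, against 242, 209, 217 and 220.2 CPM at 0 h. In GFP it stood at 484, 448, 464 and 459 CPM at 3 h, against 250.5, 182, 188 and 194 CPM at 0 h. All 3 h libraries were above all 0 h libraries, and Nfe2l1 rose by 1.08 ± 0.08 in EIF2A and 1.19 ± 0.08 in GFP (adjusted p = 6.35e-09 and 3.03e-09). Of 12 regulators tested, 3 rose and 1 fell in EIF2A, beside 19.6% and 16.6% of all genes. In GFP 2 rose and 2 fell, beside 18.4% and 14.6%. Ngly1, the glycanase that acts on NRF1, rose by 0.39 ± 0.09 in EIF2A and 0.43 ± 0.09 in GFP. Vcp, the ATPase that extracts proteins from the membrane, fell, at -0.50 ± 0.09 in EIF2A and -0.24 ± 0.09 in GFP. Stub1, a chaperone-linked ubiquitin ligase, fell in GFP, at -0.34 ± 0.11.

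Of 6 ubiquitin genes, 1 rose and 1 fell in each construct. Over all genes 19.6% rose and 16.6% fell in EIF2A, and 18.4% and 14.6% in GFP. Rps27a, which encodes ubiquitin fused to a ribosomal protein, fell, at -0.38 ± 0.09 in EIF2A and -0.37 ± 0.09 in GFP. Uba6, a ubiquitin-activating enzyme, rose in GFP by 0.51 ± 0.17.

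Constructs were compared at each time to ask whether the plasmid for EIF2A shifts these genes. Over all 4 replicates, 0 members were called at 0 h, beside 0.0218% of all genes, 7 at 1 h, beside 1.02%, and 0 at 3 h, beside 0%. At an unadjusted p under 0.05 edgeR had 15 of 48 members at 0 h and 26 at 3 h, beside 3006 and 2901 of 13761 genes. DESeq2 called 5 and 7 members, with no share over all genes given here. The 7 at 1 h were all higher in EIF2A and were Psmb1, Psmb3, Psmb4, Psmb6, Psmb7, Psma7 and Psmd6. Psmb4 had 0.43 ± 0.09 (adjusted p = 0.0419). None of the 7 calls held in all 24 fits without 1 library. The count was 0 without EIF2A replicate 2 at any time, replicate 3 at 1 h or 3 h or replicate 4 at 1 h, or without GFP replicates 2 or 3 at any time or replicate 4 at 0 h or 1 h. It was 31, 22, 21 and 15 without EIF2A replicate 1 at 1 h, replicate 1 at 0 h, replicate 1 at 3 h or replicate 4 at 3 h, and 11 without GFP replicate 1 at 1 h. It was 1 to 4 without EIF2A replicates 3 or 4 at 0 h, GFP replicate 1 at 0 h or GFP replicate 4 at 3 h.

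At 0 h the count was 15 without EIF2A replicate 1 at 0 h and 5 without EIF2A replicate 1 at 1 h. At 3 h it was 26 without EIF2A replicate 1 at 3 h and 4 without EIF2A replicate 1 at 1 h. Without replicate 1 in all groups, 29 members were higher and 7 lower in EIF2A than in GFP at 0 h, beside 31.9% and 32.9% of all genes. At 1 h 36 were higher and 3 lower, beside 32.7% and 37.3%. At 3 h 33 were higher and 5 lower, beside 32.5% and 35.1%. The members' medians were 0.23, 0.36 and 0.27 at 0, 1 and 3 h, and those of all genes 0.00, -0.04 and -0.02. With the trend with exonic length removed as well, the members' medians were 0.13, 0.36 and 0.29 and those of all genes 0.10 at each time, so that at 0 h the members lay close to all genes. Under that setting 26 members were higher and 8 lower at 0 h, beside 38.8% and 24.4% of all genes. At 1 h 31 were higher and 3 lower, beside 40% and 27%, and at 3 h 31 and 4, beside 40.6% and 25.3%. Scaled to library totals only, with all 4 replicates, the median of all genes was -0.09, -0.13 and -0.06 at 0, 1 and 3 h, and that of members 0.10, 0.15 and 0.18.

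In replicate 1 alone, the members' median log2 ratio, EIF2A over GFP, came to 0.04, 0.02 and 0.10 at 0, 1 and 3 h, with 30, 27 and 31 of 48 members above 0. In replicates 2 to 4 the 0 h medians were 0.20 to 0.22, those of 1 h 0.32 to 0.38 and those of 3 h 0.28 to 0.29. Members were thus higher on balance in the EIF2A libraries of replicates 2 to 4 and closer to the GFP level in replicate 1. The same libraries stood apart in reads outside genes. At 0 h these were 17.2 to 17.9% in replicates 2 to 4 of EIF2A and 12.0% in its replicate 1, against 12.4 to 12.99% in replicates 2 to 4 of GFP and 11.8% in its replicate 1. At 1 h and 3 h they were 13.3 to 15.4% in replicates 2 to 4 of EIF2A, against 10.9 to 12.5% in those of GFP. The scaling factors at 0 h were 0.921 to 0.942 in replicates 2 to 4 of EIF2A and 0.978 in its replicate 1, against 1.01 in replicates 2 to 4 of GFP and 0.947 in its replicate 1. Their part in the difference between constructs was not tested.

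Without replicate 1 at 0 h, all 6 called beta subunits and all 6 called assembly factors were higher in EIF2A. The alpha ring had 3 higher and 2 lower, the base 5 and 2, the lid 4 and 1, and the activators and inhibitor 3 and 2. With the exonic length trend removed as well, the beta ring had 5 higher and 1 lower, and the assembly factors 4 and 1. Before that removal, Psmg3, an assembly factor of the core, had the highest value of the members. It stood at 47.4, 51.2 and 54.3 CPM in replicates 2 to 4 of EIF2A, against 31.6, 30.2 and 30.6 CPM in GFP, and at 27.0 CPM in replicate 1 of EIF2A against 32.3 CPM in GFP. By label, the order in replicate 1 was the reverse of that in the others. The value without replicate 1 was 0.72 ± 0.08 (adjusted p = 2.92e-07), against 0.52 ± 0.21 with it (adjusted p = 0.175). Psmb10 had 0.69 ± 0.11 without replicate 1 and 0.57 ± 0.20 with it (adjusted p = 2.99e-05 and 0.135). Psma4 had 0.55 ± 0.06 without it and 0.40 ± 0.10 with it (adjusted p = 7.08e-08 and 0.1003).

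Psmb2, a beta subunit, stood at 227, 223 and 234 CPM in replicates 2 to 4 of EIF2A, against 165, 160.4 and 159 CPM in GFP, and at 159 CPM in replicate 1 of EIF2A against 201 CPM in GFP. Its value without replicate 1 was 0.50 ± 0.04 (adjusted p = 6.60e-09), and with it 0.30 ± 0.16 (adjusted p = 0.257). Psmd1 stood at 343, 353 and 348 CPM in replicates 2 to 4 of EIF2A, against 246, 245 and 236 CPM in GFP, and in replicate 1 at 229 CPM in EIF2A against 190.1 CPM in GFP. By label, the direction for Psmd1 was therefore the same in all 4 numbers. The Eif2a level of replicate 1 goes against its labels. Ordered by Eif2a level instead, replicate 1 had the opposite direction to replicates 2 to 4 for Psmd1, and the same direction for Psmb2. Without replicate 1 it had 0.52 ± 0.05 (adjusted p = 2.00e-08), and with it 0.47 ± 0.13 (adjusted p = 0.101). Among those lower in EIF2A, Psme4 had -0.51 ± 0.05 without replicate 1 and -0.38 ± 0.16 with it (adjusted p = 9.84e-08 and 0.181). Psma3 had -0.36 ± 0.08 without it and -0.16 ± 0.13 with it (adjusted p = 0.000514 and 0.437).

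**Figure D4:**
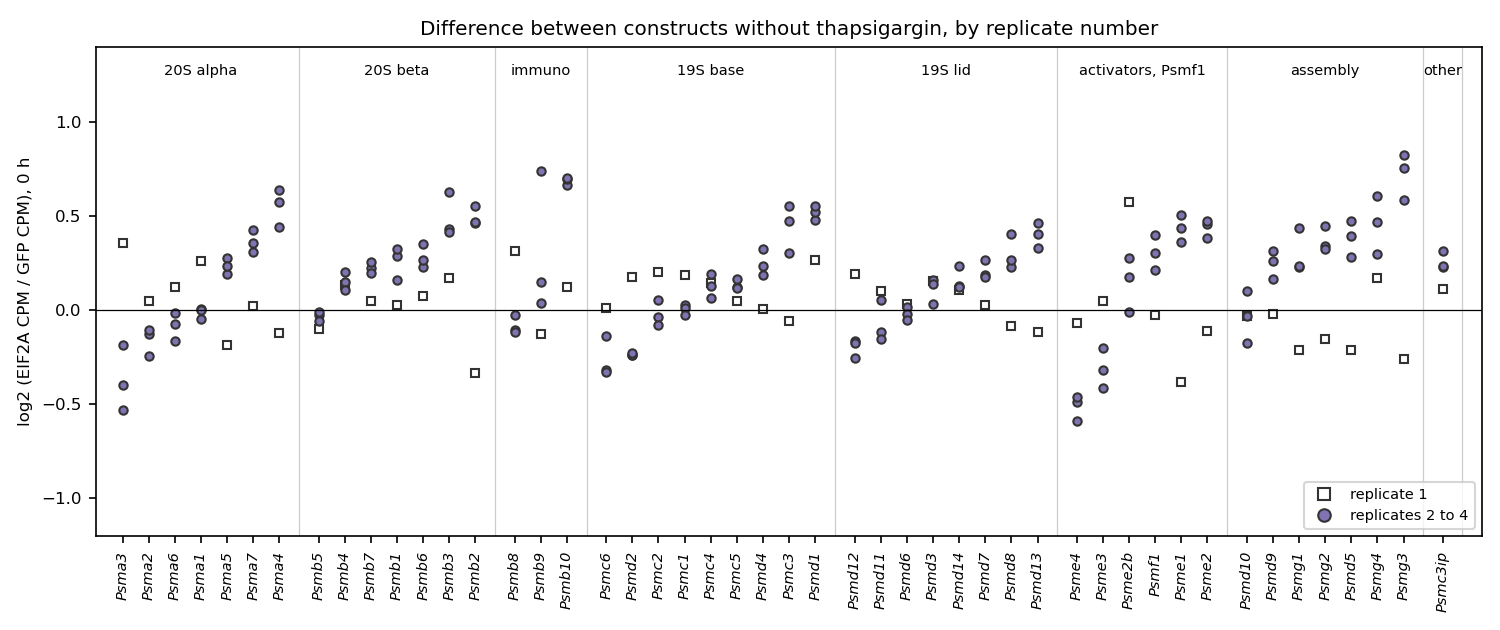
Log2 ratio of EIF2A over GFP CPM at 0 h (y axis) for each tested member, by module, 1 point per replicate number; open squares are replicate 1, circles replicates 2 to 4. Circles are above 0 for most beta subunits and assembly factors and below 0 for Psme4 and Psma3, and the squares of Psmb2, Psmg3 and Psma4 lie on the other side of 0 from their circles.

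Whether the response to thapsigargin differed between constructs was tested by the interaction, the EIF2A fold change minus the GFP one. Over all replicates 0 members were called at 1 h and 0 at 3 h, beside 0% of all genes at each. At an unadjusted p under 0.05 edgeR had 3 members at 1 h and 1 at 3 h, beside 72 and 146 of 13761 genes. DESeq2 called 0 members at both. Without replicate 1, 7 were higher and 0 lower at 1 h, beside 0.488% and 0.328% of all genes. They were Psmc5, Psmb4, Psma6, Psme1, Psmc2, Psmd6 and Psmb7. Psmc5 had 0.41 ± 0.07 (adjusted p = 0.00490). At 3 h 4 were higher and 1 lower without replicate 1, beside 1.55% and 2.57% of all genes. Psmc5, Psmc2, Psma6 and Psmb2 were the higher ones, at 0.37, 0.28, 0.27 and 0.22, and Psmd1 was lower, at -0.35. With replicate 1, Psmc2, Psma6, Psmb2 and Psmd1 had 0.20, 0.21, 0.19 and -0.29, none of them called. Over all replicates Psmc5 had 0.33 ± 0.16 at 1 h (adjusted p = 1.00) and 0.30 ± 0.16 at 3 h (adjusted p = 1.00).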

How the data were processed

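Polyadenylated RNA of 24 libraries was measured in 6 groups of 4, grouped by the sample titles and numbered by them. Libraries were stranded mRNA libraries, per the labels' protocols, and bcl2fastq, STAR and the mm10 build are listed in the submitters' processing notes. Which program, annotation and strand setting gave the counts is not stated in these sources. Raw gene counts, not normalized, were deposited by the authors. The table's 2 lines that name no gene were left out. They amounted to 10.7 to 17.9% (reads outside genes) and 0.518 to 0.592% (ambiguous reads) of a library's summed column, these lines included.

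Counts were scaled with TMM, filtered (minimum count 10, minimum total 15) and fitted as 6 group means over 24 libraries with 18 residual degrees of freedom in edgeR 4.0.16 (limma 3.58.1, R 4.3.3), by the robust quasi-likelihood test with Benjamini-Hochberg adjustment over 13761 genes. The procedure was tested on simulated data. Alternatives were DESeq2 1.42.0, other scalings, no filter, the replicate number as a block, each library or number left out, and a length trend removed. CPM are TMM-scaled. Depth was 10522758 to 22222701 counts, from reads without molecular identifiers. The SEs come from the fit and include the spread between libraries, which may be technical. Replicate pairs had a chi-square per degree of freedom of at least 1.32, and up to 147 with replicate 1, so none was merged.

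Numbers were taken to pair the times of a construct. Deviations from group means correlated at 0.510 to 0.933 in all 24 same-numbered pairs. Replicate 1 lay far from the rest of every group, so such values would also arise without pairing and cannot show it. The best match had the same number in 22 of the 24 pairs. Between GFP at 0 h and 3 h, replicates 2 and 4 both matched replicate 3 best. Numbers were not taken to pair constructs (-0.663 to -0.159 in 12 pairs), values that replicate 1 shapes as well. Members and lists were chosen with earlier results of these data known. Values are given, per module, for the member with the highest mean, the smallest p and the highest and lowest fold change of 3 h over 0 h in GFP, and the smallest p between constructs at 0 h without replicate 1. Members at the ends of other comparisons, partners and regulators called in GFP, Psmc5 and members whose calls are listed were named beside these, Psmc5 after its values were seen. Main transcripts, coordinates and overlaps are from GENCODE vM21, and promoters from RefSeq (GRCm38.p6).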

Additional observations from a re-analysis of the deposited data

Results flagged for a closer look

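In groups of 4 libraries, a library was looked at again where its gap to the nearest other, divided by the range of the group, was above Dixon's critical value for 4 values. Chance alone flags about 1 in 20 groups. Of 120 groups tested, 18 passed, and in 16 of them the library apart was replicate 1, the number whose Eif2a level goes against its label. The groups reuse the same libraries for every gene, so they are not independent. Among the genes flagged, Psma4, Psmb2, Psmd1, Psme4 and Psmg3 had the smallest p of their module between constructs at 0 h without replicate 1. That choice favours genes whose other replicates lie close together, which sets replicate 1 apart. These counts can therefore not be weighed against the 1 in 20 of chance.

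The base over core ratio of GFP had replicate 1 apart at 0, 1 and 3 h, with gaps of 0.844, 0.904 and 0.892 of the range. Its values were 0.32, 0.51 and 0.68, against group medians of 0.49, 0.73 and 0.88. Psmb2 had replicate 1 apart in EIF2A at 0 h and 3 h (0.849 and 0.898) and in GFP at 0, 1 and 3 h (0.855, 0.926 and 0.980). Replicate 1 was the lowest of the EIF2A groups, at 159 CPM at 0 h, and the highest of the GFP groups, at 201 CPM at 0 h. Psmd1 had it apart in EIF2A at 0 h (0.922) and in GFP at 3 h (0.948), as the lowest library of both, at 229 and 207 CPM.

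Replicate 1 of EIF2A stood apart for Psma2 at 3 h (0.851, at 161 CPM against a median of 116), Psme4 at 1 h (0.923, at 149 CPM against 85.6), Psmc5 at 3 h (0.842, at 227 CPM against 323) and Pomp at 0 h (0.851, at 165 CPM against 199). Replicate 1 of GFP did so for Psma4 at 1 h (0.845, at 131 CPM against 111) and Psmg3 at 3 h (0.838, at 31.0 CPM against 36.1). The 2 other cases were replicate 4 of EIF2A, for Psmb8 at 1 h (0.875, at 6.27 CPM against 4.49) and Psmd12 at 3 h (0.945, at 129.5 CPM against 145).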

How the results depend on the processing

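Counts of members called are given here, in the order 1 h over 0 h, 3 h over 0 h and 3 h over 1 h. In EIF2A the main counts were 10, 20 and 19, and in GFP 4, 19 and 13. With the replicate block they were 25, 38 and 35 in EIF2A and 19, 39 and 36 in GFP. Leaving out replicate 1 and adding the block gave 27, 42 and 39 in EIF2A and 24, 40 and 37 in GFP, and leaving it out with the exonic length trend removed gave 24, 34 and 34 in EIF2A and 15, 35 and 31 in GFP. With library totals only, 3 h over 1 h gave 10 in EIF2A and 7 in GFP, and 3 h over 0 h in EIF2A gave 22 with the split turned to 16 higher and 6 lower. Without a filter, 3 h over 1 h gave 8 in GFP. Leaving out single libraries or numbers gave 3 to 24, 8 to 37 and 0 to 37 in EIF2A, and 0 to 14, 7 to 37 and 0 to 32 in GFP. Over all genes, leaving out replicate 1 called 5762, 8598 and 6740 of 13731 in EIF2A and 5413, 8648 and 5798 in GFP. With the exonic length trend removed as well, 5643, 8330 and 6412 of 13225 were called in EIF2A and 5294, 8451 and 5700 in GFP.

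Between constructs at 0, 1 and 3 h the main counts were 0, 7 and 0. DESeq2 gave 5, 25 and 7, the replicate block 9, 27 and 12, replicate 1 left out with the block 37, 40 and 40, and replicate 1 left out with the length trend removed 34, 34 and 35. Over all genes the block called 1333, 2890 and 1054 of 13761. Without replicate 1 and with the length trend removed, 8361, 8852 and 8715 of 13225 genes were called. Shares over all genes for DESeq2, and for the block without replicate 1, are not given in any comparison. At 1 h library totals gave 2 and no filter 0. Leaving out libraries or numbers gave 0 to 36, 0 to 39 and 0 to 38. The highest of these were without replicate 1, where 8904, 9609 and 9279 of 13731 genes were called. For the interaction at 1 h and 3 h, the main counts of 0 became 18 and 14 without replicate 1 with the block and 9 and 5 with the length trend removed, and ranged over 0 to 7 and 0 to 5 in the leave-outs. With the length trend removed, 111 and 567 of 13225 genes were called for the interaction. Numbers were not taken to pair the constructs, so blocked values there share only a number. Every call of the time comparisons was also made with the block and without replicate 1. The cause of these differences was not tested. Low counts limit the tissue-restricted beta subunits and Psme2b most.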
